A study of Mus musculus with 20 samples.

Results

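The interferon-gamma inducible GTPases were followed in livers labelled as knockout or wild type for O-GlcNAc transferase (OGT), which modifies nuclear and cytoplasmic proteins with a single N-acetylglucosamine sugar. The set was given as 10 gene symbols, Gbp2, Gbp3, Gbp4, Gbp5, Gbp6, Gbp7, Igtp, Irgm1, Irgm2 and Iigp1. A feature with that single symbol was found for 8 of the 10 genes, out of 19505 named genes on the array, and Gbp5 and Gbp6 were not analysed here. The 8 comprised 4 guanylate-binding proteins (GBPs: Gbp2, Gbp3, Gbp4 and Gbp7) and 4 immunity-related GTPases (IRGs: Igtp, Irgm1, Irgm2 and Iigp1), each read by 1 feature. Total RNA from snap-frozen liver powder was hybridised to 20 Clariom S Mouse arrays, a whole-transcript expression platform. The 4 groups of 5 mice were 4-week KO, 4-week WT, 8-week KO and 8-week WT, where KO and WT stand for the genotypes labelled OGTL KO and OGTL WT. The sources used here give no Cre driver or other means of deletion, strain, sex or treatment. All values are the deposited log2 signals, so a difference of 1 is a 2-fold difference on that scale, and signals of different genes are not compared with each other because each feature has its own response.

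GBPs and IRGs are large GTPases that vertebrate cells make in quantity when interferon gamma binds its receptor, and part of the family also answers type I interferon. In mice they coat and disrupt the membrane vacuoles in which parasites and bacteria live, and GBPs also help expose bacterial products to inflammasomes. The IRGs are usually divided into effectors, such as Iigp1, which load onto the vacuole membrane, and regulators (Irgm1, Irgm2 and Igtp, also called Irgm3), which sit on the cell's own membranes and hold the effectors inactive. Hepatocytes as well as macrophages can make these proteins, and a whole-liver array does not tell the sources apart.

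Of the promoters, 4 are shown to set those with both interferon elements near the start of transcription (Gbp7, Igtp and Irgm2) beside one in which a single kind was found (Gbp3). RefSeq promoter windows, 250 bases before to 50 after an annotated start (build GRCm38.p6), were at hand for 6 of the 8 genes, and Gbp4 and Iigp1 had none. Capitals mark 2 motifs on either strand, the core of the interferon-stimulated response element (ISRE, read as GAAA, any 2 bases, GAAA, or TTTC, any 2 bases, TTTC on the other strand) and the gamma-activated site (GAS, TTCNNNGAA, the same on both strands). The windows lie for Gbp3 at chr3:142559794-142560093 on the plus strand (the first of 2 annotated starts), for Gbp7 at chr3:142530086-142530385 on the plus strand, for Igtp at chr11:58199306-58199605 on the plus strand and for Irgm2 at chr11:58214727-58215026 on the plus strand.
Gbp3: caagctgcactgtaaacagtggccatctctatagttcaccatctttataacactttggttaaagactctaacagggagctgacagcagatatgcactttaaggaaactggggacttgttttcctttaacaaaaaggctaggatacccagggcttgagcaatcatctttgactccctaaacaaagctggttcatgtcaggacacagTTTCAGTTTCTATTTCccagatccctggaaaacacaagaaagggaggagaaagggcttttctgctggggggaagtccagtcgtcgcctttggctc
Gbp7: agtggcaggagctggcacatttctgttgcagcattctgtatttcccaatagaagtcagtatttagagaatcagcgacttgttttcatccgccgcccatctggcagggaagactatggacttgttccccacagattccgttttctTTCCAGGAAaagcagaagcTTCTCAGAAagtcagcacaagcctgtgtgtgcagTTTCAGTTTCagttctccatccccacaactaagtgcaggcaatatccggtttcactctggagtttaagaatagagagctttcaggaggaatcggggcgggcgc
Igtp: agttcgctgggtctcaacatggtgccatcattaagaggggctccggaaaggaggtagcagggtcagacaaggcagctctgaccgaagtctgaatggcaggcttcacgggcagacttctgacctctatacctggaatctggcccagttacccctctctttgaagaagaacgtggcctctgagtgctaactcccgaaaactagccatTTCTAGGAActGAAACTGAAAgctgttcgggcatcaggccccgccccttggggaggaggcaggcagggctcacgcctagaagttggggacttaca
Irgm2: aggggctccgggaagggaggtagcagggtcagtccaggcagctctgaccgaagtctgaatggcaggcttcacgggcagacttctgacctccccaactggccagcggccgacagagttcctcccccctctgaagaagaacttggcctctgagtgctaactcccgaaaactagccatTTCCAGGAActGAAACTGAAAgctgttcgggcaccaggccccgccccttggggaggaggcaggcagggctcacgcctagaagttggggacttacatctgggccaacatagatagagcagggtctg
All 6 genes with a window had an ISRE core (6 of 6), against 3.99% of the 27025 genes with a window in the whole table. A GAS stood in 3 of 6, namely Gbp7 (2 matches), Igtp and Irgm2, against 9.55% of all genes. In Igtp and Irgm2 the GAS ended 2 bases upstream of the ISRE core, and their windows matched at 184 of 270 aligned bases (68.1%) when shifted by 30 bases. The ISRE matches in Gbp3 overlapped each other, as did those in Irgm1, and the second Gbp3 start had none. Of 17 type I interferon-stimulated genes with a window, 11 had an ISRE core and 4 a GAS. A match describes letters in the window and is not a bound site.

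**Figure D1:**
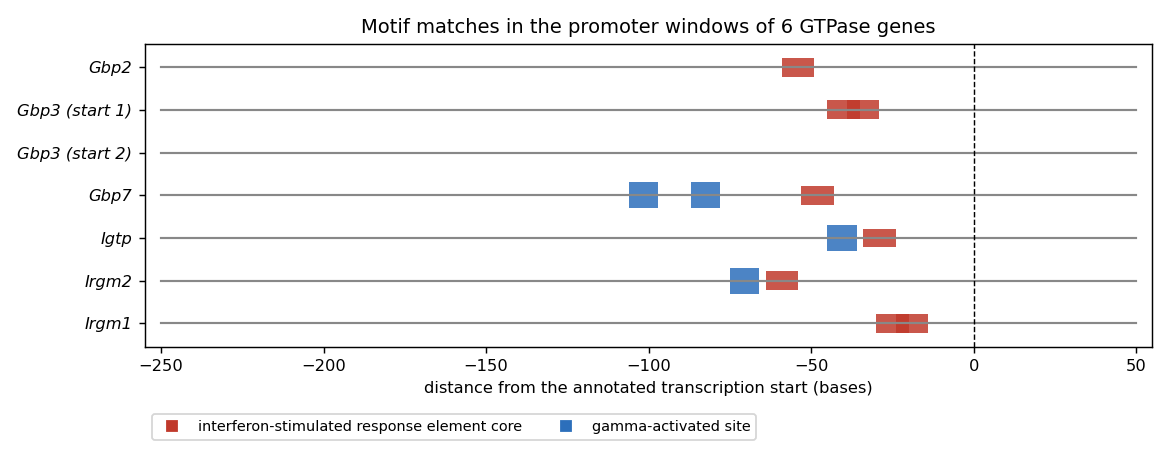
Positions of motif matches in the promoter windows of the 6 genes that had one, drawn against distance in bases from the annotated transcription start (dashed line at 0). Red boxes are ISRE cores and blue boxes GAS matches on either strand, and darker red marks overlap. Matches lie from -106 to -15 relative to the start.

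Before the GTPases are described, the arrays themselves call for a short account. Array medians lay between 5.42 and 5.58, and arrays of the same group correlated at 0.976 to 0.993. Ogt, the targeted gene, had signals of 7.37 to 8.84 in 4-week KO livers, against 9.14 to 9.87 in 4-week WT livers (difference -1.43, SE 0.20, limma adjusted p 8.82e-05), and the groups did not overlap. At 8 weeks Ogt lay between 9.55 and 10.01 in livers labelled KO, against 9.84 to 10.33 in WT livers (difference -0.27, SE 0.20, limma adjusted p 0.529), so the targeted gene does not separate the genotypes at that age. Skeletal actin (Acta1) was at 15.04 to 15.89 in 3 arrays (4-week KO replicates 4 and 5 and 4-week WT replicate 4), against 4.24 to 6.11 in the other 17. A background level, taken as the 95th percentile of 1412 olfactory and vomeronasal receptor genes, lay between 5.01 and 5.2 in the 4 groups, and the group means of all 8 GTPases were above it in each group. Replicate 1 of the 4-week WT group stands apart from its group in all 8 GTPases, and the results below that rest on it are therefore given with and without it.

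At 4 weeks the GBP transcripts were high in all KO livers, low in 4 of 5 WT livers and high in the remaining WT liver. Gbp2, a GBP that is recruited to the Toxoplasma vacuole in mouse cells, had signals of 7.85, 9.67, 10.20, 8.69 and 10.87 in the KO livers (replicates 1 to 5), against 10.14, 6.78, 6.87, 7.18 and 6.32 in the WT livers. Gbp3 had 9.84, 10.39, 10.39, 9.26 and 11.35 in KO livers, against 10.15, 7.21, 7.33, 7.51 and 7.13 in WT livers. For both genes the first WT liver lay inside the KO range while the other 4 lay below every KO liver. Gbp4, described in mice as a brake on the transcription factor IRF7, had 11.37, 11.86, 11.63, 10.93 and 12.13 in KO livers, against 12.35, 8.48, 8.60, 8.58 and 8.56 in WT livers. Gbp7, linked in mouse macrophages to the transport of antimicrobial cargo to bacterial vacuoles, had 11.11, 11.50, 11.45, 10.88 and 12.19 in KO livers, against 12.97, 9.32, 9.62, 9.24 and 8.98 in WT livers. For Gbp4 and Gbp7 the first WT liver was higher than all 5 KO livers.

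The IRG transcripts showed the same division, and the first WT liver was above every KO liver in all 4. Igtp, the regulator found on the endoplasmic reticulum and lipid droplets, had 10.99, 11.14, 11.36, 10 and 12.11 in 4-week KO livers, against 14.12, 8.47, 8.01, 8.79 and 8.05 in 4-week WT livers. Irgm1, a regulator on the Golgi and lysosomes that mice need for resistance to mycobacteria, had 13.09, 13.35, 13.55, 12.36 and 13.57 in KO livers, against 14.68, 11.63, 11.33, 11.55 and 11.08 in WT livers. In both regulators WT replicate 1 was above every KO liver and the other 4 WT livers were below every KO liver. Irgm2, the third regulator, had 12.06, 12.12, 12.39, 10.96 and 12.53 in KO livers, against 14.32, 10.43, 9.89, 10.50 and 9.89 in WT livers. Iigp1, the effector also called Irga6, had 11.51, 11.60, 12.58, 11.28 and 13.08 in KO livers, against 16.46, 10.78, 10.68, 10.50 and 10.40 in WT livers. The value of 16.46 for Iigp1 in WT replicate 1 exceeds 16, the most a 16-bit scan can give in log2 units. Every array had between 254 and 288 features above 16, so the deposited scale may be stretched in all of them. Among the KO livers replicate 5 was the highest for all 8 genes, and replicate 4 was the lowest for 7 of 8 (for Gbp2 it was replicate 1). Both of these arrays carried muscle transcripts.

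**Figure D2:**
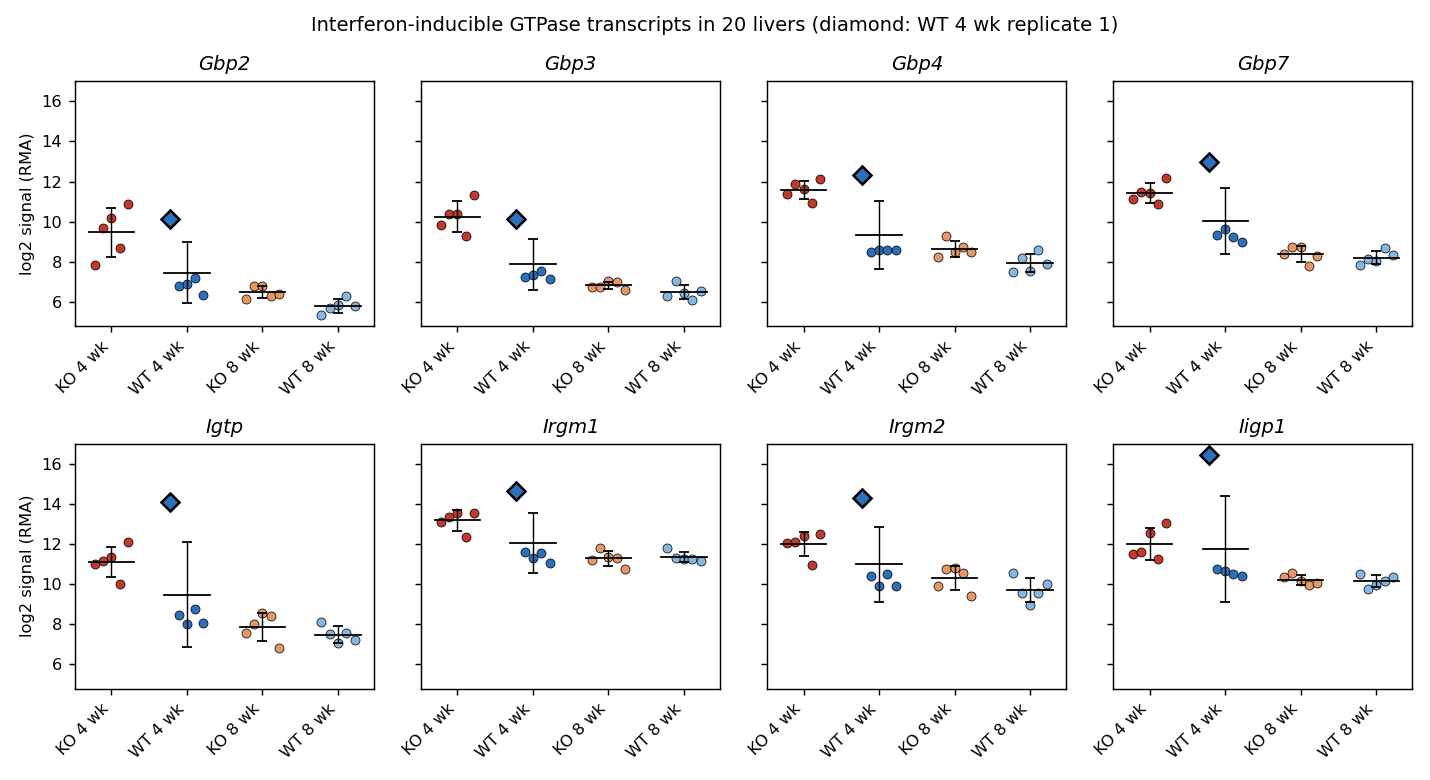
Log2 signal of the 8 GTPases in each of the 20 livers, by group, with 4-week groups left of 8-week groups and KO left of WT. Points are arrays, the horizontal line is the group mean and the bar 1 SD (n = 5), and the diamond is 4-week WT replicate 1. That diamond lies above all KO points for 6 genes and within them for Gbp2 and Gbp3.

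With all 20 arrays, 3 of the 8 GTPases were higher in 4-week KO than in 4-week WT livers by limma (Benjamini-Hochberg adjusted p below 0.05), where 10.2% of the 19505 genes were called and 4.7% were called higher. All 3 were GBPs. Gbp3 was higher by 2.38 (SE 0.44, adjusted p 0.00107), a 5.21-fold difference, with means of 10.25 ± 0.77 in KO and 7.87 ± 1.28 in WT livers (SD, n = 5 each). Gbp4 was higher by 2.27 (SE 0.52, adjusted p 0.00643), with means of 11.58 ± 0.46 in KO and 9.31 ± 1.70 in WT livers. Gbp2 was higher by 2.0 (SE 0.56, adjusted p 0.024), with means of 9.46 ± 1.2 in KO and 7.46 ± 1.53 in WT livers. The Gbp2 call was lost when the 3 arrays with muscle transcripts were left out (adjusted p 0.112), and without any one of KO replicates 2, 3 and 5 or WT replicates 2, 3 and 5 (0.0536 to 0.0762). The other 5 did not pass, with differences of 1.4 for Gbp7 (adjusted p 0.0873), 1.63 for Igtp (0.225), 1.13 for Irgm1 (0.133), 1.01 for Irgm2 (0.352) and 0.25 for Iigp1 (0.903). The KO and WT ranges overlapped for all 8, where 8.55% of all genes did not overlap. In liver tissue a lower share of cells that make a transcript and less of it per cell cannot be told apart, and the same holds for a rise.

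Without WT replicate 1, all 8 GTPases were called higher in 4-week KO livers, where 9.49% of all genes were called and 4.43% called higher. Leaving that array out is 1 of the 20 leave-one-out fits, and it is the array that these transcripts themselves single out, so the second count describes the data and is no independent support for the first. The differences were 2.67 for Gbp2, 2.95 for Gbp3, 3.03 for Gbp4 and 2.14 for Gbp7, with limma adjusted p from 2.86e-07 to 0.000201. For the IRGs they were 2.79 for Igtp, 1.79 for Irgm1, 1.83 for Irgm2 and 1.42 for Iigp1, with limma adjusted p from 3.66e-05 to 0.00222. As folds these ran from 2.68 for Iigp1 to 8.16 for Gbp4 (95% interval 5.71 to 11.7). The 4 remaining WT livers averaged 8.56 ± 0.05 for Gbp4 and 10.59 ± 0.17 for Iigp1 (SD, n = 4). The 5 KO and 4 WT livers did not overlap for any of the 8 genes, against 10.9% of all genes, with a two-sided exact permutation p of 0.0159 for each gene, the smallest that 5 against 4 can give. When the 3 arrays with muscle transcripts were left out as well, the count stayed at 8, with differences between 1.28 (Iigp1) and 3.07 (Gbp4), where 8.24% of genes were called and 3.4% called higher.

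**Figure D3:**
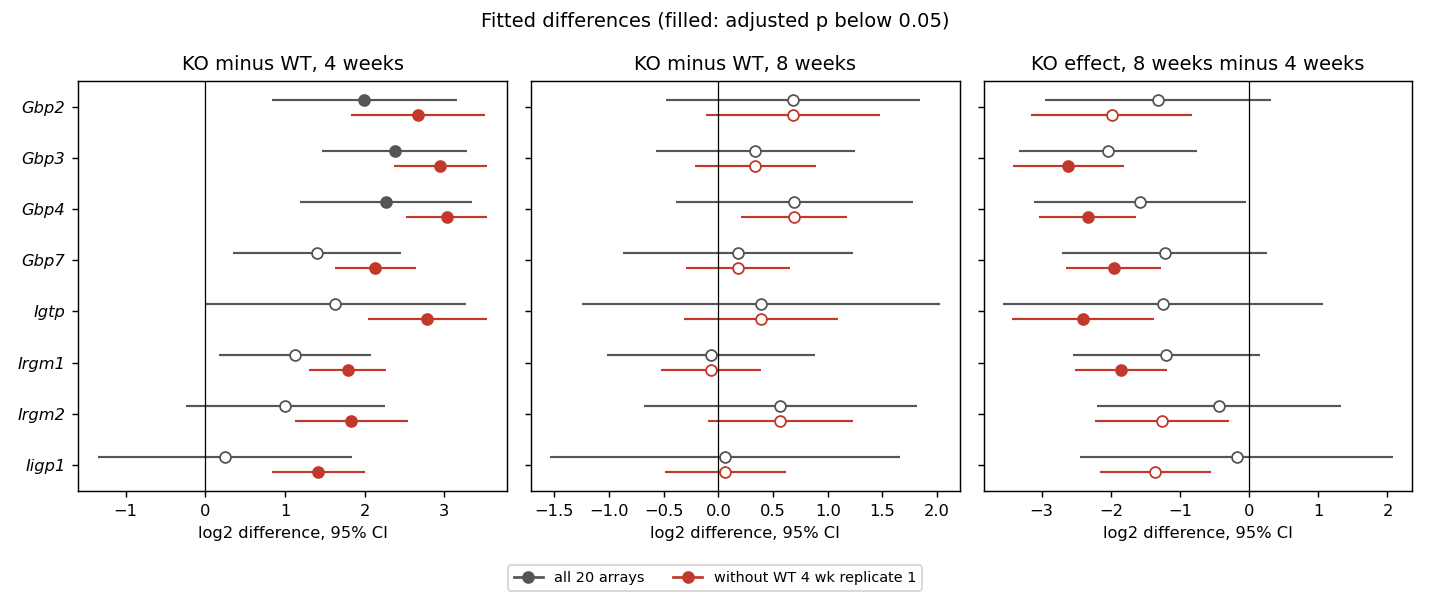
Fitted log2 differences with 95% confidence intervals for KO minus WT at 4 weeks, KO minus WT at 8 weeks, and the difference between these effects (8 weeks minus 4 weeks). Grey is the fit to all 20 arrays, red the fit without 4-week WT replicate 1, and filled points have an adjusted p below 0.05. In the first panel 3 grey and 8 red points are filled, and in the second none.

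WT replicate 1 was then set against the other 4 WT livers of its age. Its rises were 5.87 for Iigp1, 5.79 for Igtp, 4.14 for Irgm2, 3.80 for Gbp4, 3.68 for Gbp7, 3.35 for Gbp2, 3.28 for Irgm1 and 2.86 for Gbp3, which placed all 8 among its 20 highest of 19505 genes. Over the whole array 0.913% of genes rose by more than 1. In the KO livers the mean rises over the same 4 WT livers had another order. The 4 GBPs rose by a median of 2.81 in KO livers and 3.52 in WT replicate 1, whereas the 4 IRGs rose by a median of 1.81 in KO livers and 4.97 in WT replicate 1. A single array allows no test of that difference. Of the genes with a promoter window, the 3 with a GAS rose by 3.68 (Gbp7), 5.79 (Igtp) and 4.14 (Irgm2) in this liver. The 3 without rose by 3.35 (Gbp2), 2.86 (Gbp3) and 3.28 (Irgm1). Outside the 8, genes with a GAS included Tgtp2 (rise 7.64), Gm12250 (6.45), Psmb8 (2.17) and Icam1 (0.35). They also included Eif2ak2 (0.58), Ifng (0.145), Oas1a (-0.17) and Ifit2 (-0.19). Those without one included Tap1 (3.34), Psmb9 (2.98), Psmb10 (2.83), Cxcl10 (1.70) and Ifngr1 (-0.32). Both kinds thus held genes with a high rise and genes with little or none. Whether the motif bears on the rise was not tested.

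Other measures of WT replicate 1 were checked beside the GTPases. Its Ogt signal of 9.37 lay within the WT range, its Acta1 was not raised, and 1.98% of its genes were more than 1 away from the mean of the other arrays of its group, against 0.743% to 4.42% in the other 19 arrays. Type I interferon-stimulated genes were raised in it less than in KO livers, with a median rise of 1.90 in KO livers and 0.72 in WT replicate 1. Of these 23 genes, 16 were above all 4 other WT livers (18.9% of all genes were), and 19 were below every KO liver, where 3497 of all 19505 genes were. Ifit1, an antiviral RNA-binding protein, was at 11.53, 11.25, 11.47, 9.61 and 11.40 in KO livers, against 7.38 in WT replicate 1 and 6.58 to 7.21 in the other WT livers. Of 18 other interferon-gamma effectors, 7 were above all KO livers and 6 below, where 3905 and 3497 of all 19505 genes were. Tap1, which carries peptides to MHC class I, was among the 7 at 10.82, against 8.88 to 10.39 in KO livers, and the chemokine Cxcl10 was below at 8.05, against 8.94 to 11.53 in KO livers. Irf1, a transcription factor induced by interferon gamma, stood at 10.33 in this liver, with 8.29 to 10.01 in KO livers and 7.93 to 8.97 in the other WT livers.

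**Figure D4:**
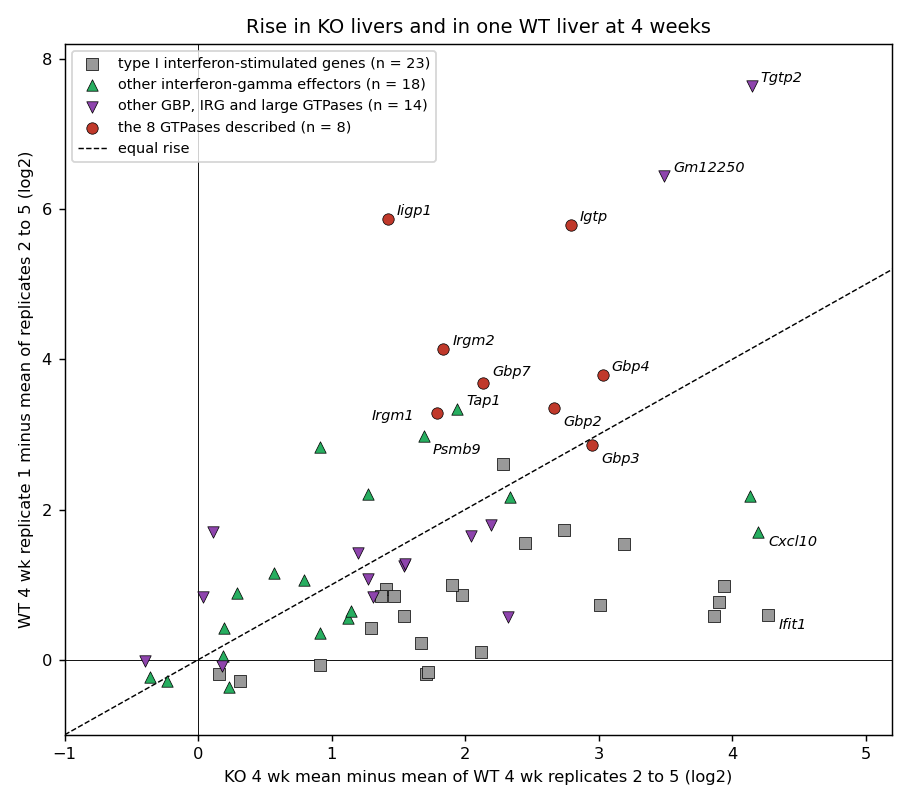
Rise over the mean of 4-week WT replicates 2 to 5, in log2 units, in the mean of the 5 KO livers (horizontal axis) and in WT replicate 1 (vertical axis), one point per gene. The dashed line marks an equal rise. Of the 8 GTPases (red), 7 lie above the line and Gbp3 lies just below it, while most type I interferon-stimulated genes (grey) lie far below.

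At 8 weeks the GTPases were below the 4-week KO livers in both genotypes. Gbp2 was at 6.15, 6.78, 6.78, 6.31 and 6.41 in KO livers, against 5.35, 5.71, 5.84, 6.31 and 5.81 in WT livers. Gbp4 was at 8.25, 9.29, 8.46, 8.72 and 8.47 in KO livers, against 7.50, 8.2, 7.55, 8.59 and 7.89 in WT livers. In each of these 2 genes most KO livers were above most WT livers but the ranges overlapped. Gbp3 lay between 6.59 and 7.02 in KO livers, against 6.08 to 7.05 in WT livers, and Gbp7 between 7.80 and 8.73, against 7.82 to 8.70 in WT livers. Igtp was at 6.83 to 8.59 in KO and 7.05 to 8.10 in WT livers. Irgm1 was at 10.78 to 11.83 in KO and 11.17 to 11.83 in WT livers, Irgm2 at 9.43 to 10.80 in KO and 8.95 to 10.56 in WT livers, and Iigp1 at 9.94 to 10.55 in KO and 9.76 to 10.51 in WT livers. No 8-week liver of either genotype reached the lowest 4-week KO liver in any of the 8 genes.

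None of the 8 (0 of 8) was called between 8-week KO and WT livers, where limma called 6.58% of all genes. The differences were 0.68 for Gbp2 (95% interval -0.48 to 1.84), 0.34 for Gbp3, 0.69 for Gbp4 (-0.39 to 1.77), 0.18 for Gbp7, 0.39 for Igtp, -0.07 for Irgm1, 0.57 for Irgm2 and 0.06 for Iigp1 (-1.54 to 1.66). These intervals do not show that the genotypes were alike. Their pooled spread includes 4-week WT replicate 1, an array outside this comparison. Without that array they were -0.11 to 1.48 for Gbp2, 0.21 to 1.18 for Gbp4 and -0.49 to 0.61 for Iigp1. The median of the 8 was 0.36, and 7 of 8 differences were above 0, with limma adjusted p between 0.516 and 0.981. Unadjusted two-sided exact permutation p were 0.0238 for Gbp2 and 0.0476 for Gbp4, and 0.111 or above for the other 6. No GTPase had a limma unadjusted p below 0.05 (0 of 8, lowest 0.198), and 0 of 8 were called without 4-week WT replicate 1, where 6.32% of genes were called and Gbp4 had an unadjusted p of 0.00748. Ranges overlapped for all 8, against 6.1% of genes without overlap.

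The difference between the 2 ages in the KO effect (8 weeks minus 4 weeks) was below 0 for all 8 genes, from -2.04 for Gbp3 to -0.18 for Iigp1, but none was called with all arrays (0 of 8), where 3.05% of genes were called and 1.0% called lower. The smallest limma adjusted p was 0.0778, for Gbp3, and at an unadjusted p below 0.05 there were Gbp3 (0.00336) and Gbp4 (0.044). Without WT replicate 1, 5 of 8 were called lower, where 3.0% of all genes were called and 1.16% called lower. They were Gbp3 (-2.62, adjusted p 0.000918), Gbp4 (-2.34, 0.000768), Gbp7 (-1.96, 0.00317), Igtp (-2.40, 0.0116) and Irgm1 (-1.85, 0.00357) by limma. Gbp2 (-1.99, adjusted p 0.058), Irgm2 (-1.27, 0.166) and Iigp1 (-1.36, 0.0616) did not pass.

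Within the KO genotype, the 8-week livers were below the 4-week livers in all 8 genes with no overlap, against 9.47% of all genes, and the exact permutation p was 0.00794 for each, the smallest that 5 against 5 can give. The limma fit called 6 of 8 lower, where 14.6% of genes were called and 6.78% called lower. Gbp3 fell by 3.43 (SE 0.44, adjusted p 1.5e-05), or 10.8-fold, with means of 6.82 ± 0.19 at 8 weeks and 10.25 ± 0.77 at 4 weeks (SD, n = 5 each). Igtp fell by 3.24 (adjusted p 0.00704), Gbp7 by 3.04 (0.000262), Gbp2 by 2.97 (0.00082), Gbp4 by 2.95 (0.000475) and Irgm1 by 1.89 (0.00687). Differences of -1.71 for Irgm2 (adjusted p 0.0599) and -1.80 for Iigp1 (0.132) did not pass in that fit, whose residual spread includes WT replicate 1. Both passed when only the 2 KO groups were fitted (0.00419 and 0.00224), and Irgm2 passed with the dimmest genes left out (0.0486). Both also passed without that array (0.000874 and 8.17e-05), so the count was then 8, where 14.2% of genes were called and 6.65% called lower.

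Within WT, only Gbp7 was called lower at 8 than at 4 weeks (1 of 8), where 8.94% of genes were called and 5.23% called lower. Gbp7 fell by 1.82 (SE 0.51, limma adjusted p 0.0252), with means of 8.21 ± 0.33 at 8 weeks and 10.03 ± 1.66 at 4 weeks. Without WT replicate 1 it fell by 1.08 (SE 0.24, adjusted p 0.00678) and was again the only one called, where 7.5% of genes were called and 4.5% called lower. The call did not hold without 8-week WT replicate 1 (adjusted p 0.0557) or replicate 3 (0.0555). The other 7 differences lay between -1.996 and -0.69 with all arrays and between -0.98 and -0.04 without WT replicate 1. The 2 ages did not overlap in WT livers for Gbp2, Gbp3 and Gbp7 (3 of 8), against 9.08% of all genes. By group mean, 7 of 8 genes had the order 4-week KO, 4-week WT, 8-week KO, 8-week WT from high to low, and Irgm1 differed in its last 2 places, which lie 0.07 apart. Without 4-week WT replicate 1, 5 of 8 had that order, the others being Gbp4, Irgm1 and Irgm2.

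Relatives of the 8 genes on the array moved in part with them. Tgtp2 and Gm12250, IRG effectors also known as part of the Irgb group, followed the same pattern. Tgtp2 had 11.44, 12.63, 12.79, 10.82 and 13.53 in 4-week KO livers, against 15.74, 7.77, 7.64, 9.41 and 7.57 in 4-week WT livers. Its near-identical copy Tgtp1 had no named feature and may share this signal. Its difference was 2.62 (limma adjusted p 0.129) with all arrays and 4.14 (2.12e-05) without WT replicate 1. For Gm12250 these were 2.20 (0.125) and 3.49 (1.1e-05). Gbp8 (0.91, adjusted p 0.0289) and Gbp9 (1.72, 0.00107), the 2 other GBPs measured, were both called higher in 4-week KO livers. Of 9 other IRG genes, 3 were called higher with all arrays, namely 9930111J21Rik1 (1.29), 9930111J21Rik2 (1.29), which may share signal, and Gm5431 (1.14), and 5 without WT replicate 1. The same 3 were also the IRG relatives called higher at 8 weeks, by 1.46, 1.52 and 1.06. Gbp8 and Gbp9 were not called at 8 weeks with all arrays. Without 4-week WT replicate 1 both were called higher in 8-week KO livers, where 6.32% of all genes were called. These differences were 0.74 for Gbp8 (limma adjusted p 0.0307) and 0.86 for Gbp9 (0.039). Differences of Gm4951 and F830016B08Rik, close relatives of Iigp1, did not pass at either age. In WT replicate 1 Gm4951 stood at 14.58, against 13.41 to 13.96 in 4-week KO livers. There F830016B08Rik stood at 10.11, against 7.89 to 9.27. Mx1 (2.20), Gvin1 (1.84) and Mx2 (1.06), large interferon-inducible GTPases outside both families, were all called higher at 4 weeks (3 of 3). Over all genes 4.7% were called higher at that age with all arrays and 4.43% without WT replicate 1. In WT replicate 1, Mx1 was at 5.59, below the KO range of 6.44 to 8.57. In the same liver Mx2 (8.34) and Gvin1 (10.11) each lay within the 4-week KO range of that gene.

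**Figure D5:**
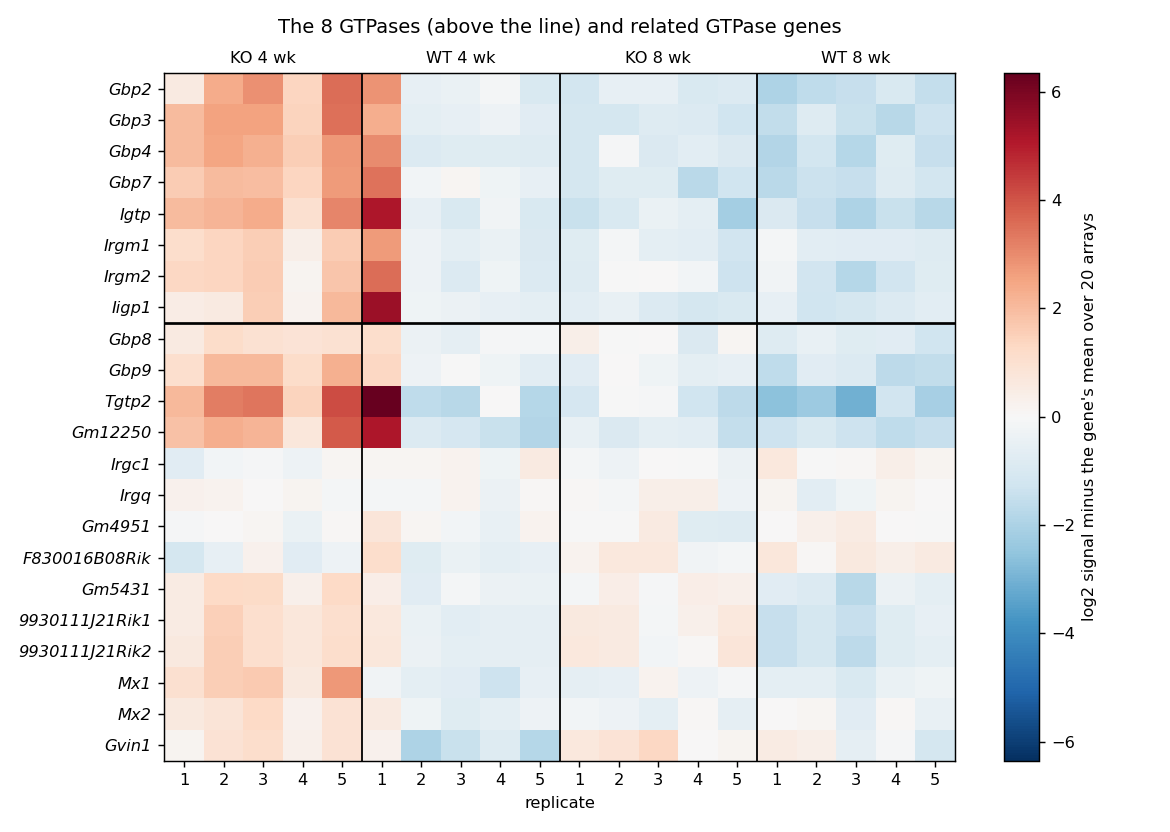
Log2 signal of the 8 GTPases (above the line) and 14 related GTPase genes (below it) in each liver, as the difference from the gene's own mean over 20 arrays, with red above and blue below that mean. Columns are replicates 1 to 5 of each group. The 4-week KO block and the single column of 4-week WT replicate 1 are red in the 8 GTPases. Among the related genes that column is strongest in Tgtp2 and Gm12250. Only Irgc1 and Irgq were not above the other 4-week WT livers in it.

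The interferon-gamma pathway itself was examined from the ligand inwards. Ifng had group means that were not above background in any of the 4 groups. It lay between 3.46 and 4.39 in 4-week KO livers, against 2.77 to 3.71 in WT livers, a difference of 0.60 (limma adjusted p 0.0492) below that level. The call was lost without WT replicate 1 (adjusted p 0.0612), whose own value was 3.40. The receptor chains Ifngr1 and Ifngr2 and the kinases Jak1 and Jak2 were above background in all groups and differed by -0.10, 0.21, 0.20 and 0.05 at 4 weeks, none of which passed. Ifngr1, the ligand-binding chain, was higher in KO livers at 8 weeks, by 1.26 (SE 0.23, adjusted p 0.00144), at 9.70, 9.50, 9.63, 9.30 and 10.58 in KO livers, against 8.33, 8.67, 8.19, 8.21 and 9.02 in WT livers. With age it was lower in WT livers (-0.98, adjusted p 0.00781) and was not called in KO livers (0.37, adjusted p 0.332). Of the 14 genes of the signalling list, 1 passed at 4 weeks (Ifng) and 1 at 8 weeks (Ifngr1), with median differences of 0.15 and 0.24. Over all genes 10.2% and 6.58% were called at these ages.

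Other targets of interferon also differed at 4 weeks. Of 23 type I interferon-stimulated genes, 20 were higher in KO livers (median difference 1.76, and 0.002 over all genes), and the same number was called without WT replicate 1. Over all genes 4.7% were called higher at 4 weeks with all arrays and 4.43% without WT replicate 1. Ifit1 was higher by 4.15, Cmpk2 by 3.74, Rsad2 by 3.74 and Ifit3 by 3.75, with limma adjusted p from 3.54e-07 to 1.24e-06. Of 18 other interferon-gamma effectors, 7 were called higher with all arrays (median 0.71) and 12 without WT replicate 1 (median 0.91). Cxcl10 was higher by 3.85 and Cxcl9 by 3.70, both chemokines that draw T cells, and the immunoproteasome subunit Psmb8 by 1.90. The transcription factor Irf7 was higher by 4.00 (SE 0.40, adjusted p 1.92e-06), with Stat2 (0.94) and Irf9 (0.92) also higher and the kinase Tyk2 lower (-0.49, a call lost without WT replicate 1) among 13 type I signalling genes. Of 21 autophagy and inflammasome partners of the GTPases, Sqstm1, the autophagy adaptor p62, was higher (1.12, adjusted p 0.000954) and Map1lc3a lower (-0.98, 0.0149). At 8 weeks 0 of 23 type I interferon-stimulated genes and 2 of 18 effectors (Icam1, 0.70, and Ifi30, 0.97) were called, where 6.58% of all genes were.

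The 8 GTPases varied together. Over 20 arrays their 28 pairs correlated at 0.76 to 0.97 (median 0.92), values that share the array, the group differences and WT replicate 1. Without that array and after the group means were removed, the pairs correlated at 0.31 to 0.89 (median 0.56), highest for Igtp with Irgm2. Among all other genes, the 8 whose signal over 20 arrays was most like the mean of the GTPases were Tgtp2 (Pearson r 0.98), Gm12250 (0.97), Zbp1 (0.95), Psme2 (0.93), Il7 (0.93), Tap1 (0.92), Cd274 (0.92) and Il18bp (0.92), of which Il7 lay mostly below background. After group means were removed, the 8 were Tgtp2 (0.97), Gm12250 (0.97), Gm4841 (0.96), Psmb10 (0.94), Tap1 (0.94), Zbp1 (0.92), Meiob (0.90) and Cd274 (0.89). Without WT replicate 1 the first 8 had 0.88 to 0.97 over 19 arrays. After removal of group means, the second 8 then had 0.51 (Cd274) to 0.86 (Tgtp2). Over the other 19 arrays the most alike were Ifit3 (0.99), Cxcl10 (0.99), Ifit3b (0.99), Cmpk2 (0.98) and Rsad2 (0.98), which had 0.83, 0.87, 0.83, 0.82 and 0.81 over all 20.

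Markers of other cells moved with the KO groups, and their part in the GTPase signal was not tested. The mean of 8 markers of monocytes and infiltrating macrophages ran from 6.78 to 7.98 in 4-week KO livers, against 5.22 to 5.61 in WT livers, and from 6.49 to 7.20 in 8-week KO livers, against 5.25 to 5.56 in WT livers. Of these 8, 6 were called higher at 4 weeks and 5 at 8 weeks, led by Mmp12 (6.12 at 4 weeks). Over all 19505 genes, 917 were called higher and 1068 lower in KO livers at 4 weeks. At 8 weeks 963 were called higher and 321 lower. In WT replicate 1 the list stood at 5.61, the top of the WT range and below all KO livers. The mean of 8 Kupffer cell markers was 9.33 to 9.77 in 4-week KO and 8.75 to 9.40 in 4-week WT livers, with 9.40 in WT replicate 1. At 8 weeks it was 7.71 to 8.99 in KO and 7.80 to 8.33 in WT livers. Markers called higher in KO livers included Cd5l (1.14) and C1qa (0.67) at 4 weeks. At 8 weeks they included C1qb (1.88), C1qa (0.86) and Adgre1 (0.81), while Clec4f lay at 6.98 to 8.34 in KO and 7.89 to 8.76 in WT livers. Within KO, 5 of these 8 markers were called lower at 8 than at 4 weeks, led by Clec4f (-2.16), Cd5l (-1.93) and Timd4 (-1.19). Within WT 4 of 8 were called lower, unlike the GTPases (1 of 8). Over all genes 6.78% were called lower within KO and 5.23% within WT. T and NK cell markers averaged 4.69 to 5.09 in 4-week KO and 4.47 to 4.75 in 4-week WT livers, near background, with 5 of 14 markers above it in KO and 3 of 14 in WT livers. Hepatocyte markers averaged 18.76 to 18.91 in 4-week KO livers, against 18.93 to 19.07 in 4-week WT livers, and were high in all 20 arrays. Other lists moved mainly at 8 weeks. Cholangiocyte markers averaged 7.46 to 10.22 in 8-week KO livers, against 4.99 to 6.18 in WT livers, and 5 of 5 were called higher. Of 6 stellate cell and fibroblast markers, 5 were called higher at that age. Endothelial markers had 1 of 7 called higher at 8 weeks and 1 of 7 lower at 4 weeks, and 0 of 3 B cell and 0 of 8 skeletal muscle markers were called at either age. Cd3e, the T cell receptor subunit, was called higher in 4-week KO livers (0.78, limma adjusted p 0.0091) with both group means below background. Klrk1, of the same T and NK cell list, was also called higher at 4 weeks (0.74, limma adjusted p 0.0157), with both group means above background. Without WT replicate 1, Gzma was called higher too (1.11, limma adjusted p 0.00696). At 8 weeks Cd4, above background in every group, was called lower in KO livers (-0.79, limma adjusted p 0.00404).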

How the data were processed

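Liver RNA of 20 mice was measured on Clariom S Mouse arrays. The authors processed the arrays with RMA in Affymetrix Expression Console, per the submitters' processing notes, while the sources used here give neither versions nor a genome build. Deposited log2 signals were used as they stand. Nothing in the labels names batches or scan dates.

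Features with 1 symbol in the platform annotation (19572 of 22206) gave 19505 genes, with the feature of highest mean kept per symbol. 2634 features had no single symbol and were left out. The 4 group means were fitted with limma 3.58.1 (R 4.3.3, lmFit and eBayes, 16 residual degrees of freedom), with 5 comparisons and Benjamini-Hochberg adjustment over 19505 genes at 0.05. The code was tested on simulated data. Member values were also tested by exact permutation (scipy 1.17.1). Replicates are 5 mice per group, and the number of arrays limits the precision.

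The members and 17 gene lists (183 genes, 170 measured) were chosen with earlier results of these data known. Named were the members, Ogt, all measured genes of the lists of relatives, the receptor and kinase genes, Irf1, up to 4 called genes per pathway list and 3 per cell type list by adjusted p, and 8 genes by each measure of likeness. Tap1 and the acute phase genes were named after their values were seen. Lists are described by counts and medians. Promoter windows came from RefSeq.

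Alternatives were equal array medians, repeated quantile normalization, leaving out the dimmest 25% of genes, a variance trend, a replicate block, only the groups compared, no muscle arrays, feature means, and each array left out. A further 2 alternatives were added after seeing the data.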

Additional observations from a re-analysis of the deposited data

Results flagged for a closer look

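In each of the 8 GTPases, 4-week WT replicate 1 lay far from the other 4 arrays of its group, with the gap to the nearest array divided by the group's whole range at 0.775 or above (0.71 is the critical value for 5 samples). Its signals were 10.14 for Gbp2, 10.15 for Gbp3, 12.35 for Gbp4, 12.97 for Gbp7, 14.12 for Igtp, 14.68 for Irgm1, 14.32 for Irgm2 and 16.46 for Iigp1. The 8-week WT replicate 1 stood apart in Irgm1, at 11.83 against 11.17 to 11.29 in the other 4 WT livers. These were 9 of the 32 gene and group combinations examined. Chance alone marks about 1 in 20 groups, or 1.6 here, and the 8 genes are not independent of each other.

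The effect of the KO genotype on Ogt itself differed between ages, being smaller at 8 weeks by 1.16 log2 units (SE 0.29, limma adjusted p 0.0307). Ogt averaged 9.81 ± 0.21 in KO and 10.08 ± 0.20 in WT livers at 8 weeks, and 8.14 ± 0.53 in KO and 9.57 ± 0.31 in WT livers at 4 weeks (SD, n = 5 each). The adjusted p ran from 0.00747 to 0.0605 when single arrays were left out, and the call was lost without any one of 4-week WT replicates 2, 3 and 4, 8-week KO replicates 1 and 2 or 8-week WT replicates 1 and 3.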

How the results depend on the processing

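Leaving out 4-week WT replicate 1 moved the counts most at 4 weeks and for the difference of effects, through the WT mean and the pooled spread. Over the 20 leave-one-out fits the number of GTPases called ran from 2 to 8 at 4 weeks, was 0 throughout at 8 weeks, and ran from 0 to 5 for the KO effect at 8 weeks minus 4 weeks (1 without 4-week KO replicate 4, 5 without 4-week WT replicate 1), from 6 to 8 for age within KO (8 also with only the groups compared, 7 with the dimmest genes left out), and from 0 to 3 for age within WT (3 without 4-week WT replicate 5, 0 without 8-week WT replicate 1 or 3). The 2 alternatives added after seeing the data both gave 8 at 4 weeks. For the difference of effects, leaving out that array and the muscle arrays gave 5, and the replicate block without that array gave 6. For age within WT, the count was 2 with the dimmest genes left out, with the variance trend, without the muscle arrays and in the first added alternative, and 0 with only the groups compared. The labels do not say that equal replicate numbers mark shared animals or days, and the numbers were not taken as pairs. Deviations of same-numbered KO and WT arrays correlated at 0.14, 0.32, 0.16, 0.48 and -0.15 at 4 weeks (replicates 1 to 5). Both arrays of replicate 4, the pair at 0.48, carried muscle transcripts. At 8 weeks the correlations were -0.18 to 0.14. With the replicate block, 2 GTPases were called at 4 weeks, since Gbp2 had an adjusted p of 0.0504. Gbp2 was also lost with only the groups compared (0.103) and in 6 leave-one-out fits (0.0536 to 0.0762).

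Some differences changed sign. Iigp1 at 4 weeks was -0.18 without the muscle arrays and below 0 in 4 leave-one-out fits, whose 20 values ran from -0.095 to 1.42. At 8 weeks Iigp1 was -0.029 with equal medians and ran from -0.0325 to 0.155 over the leave-one-out fits, and Irgm1 from -0.2 to 0.0625. The Iigp1 difference of effects was 0.25 without the muscle arrays and ran from -1.356 to 0.159 over the leave-one-out fits. Irgm1 with age in WT was 0.01333 without 4-week WT replicate 1 and the muscle arrays (-0.69 with all). Other causes were not tested. Equal medians moved the share of higher calls among all genes to 34.7% (46.2% as deposited) at 4 weeks and 52.9% (75.0%) at 8 weeks, with 727 against 321 lower calls there. At 8 weeks lower calls fell to between 199 and 207 without KO replicate 2 or 5 or WT replicate 3. The difference of effects had 385 calls without 8-week KO replicate 1 and 364 with the block and without 4-week WT replicate 1 (595 with all arrays), and age within WT had 1017 without that array and the muscle arrays (1744). Among 129 results for other named genes, 3570 of the alternatives kept call and direction, 280 lost the call and 0 reversed.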

Other observations

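Outside the lists, the genes highest in 4-week WT replicate 1 over the other WT livers included acute phase genes, named here after their values were seen. Saa2, a serum amyloid A protein, was at 12.60 in that liver, against 6.76 to 7.39 in the other 4, with 8.53 to 12.13 in the KO livers. Saa1 was at 11.93, against 6.81 to 7.10, with 7.63 to 10.42 in the KO livers. Lcn2, which binds bacterial siderophores, was at 15.12, against 9.65 to 11.57, with 13.03 to 14.22 in the KO livers, and Orm2 at 12.29, against 8.01 to 9.75, with 8.43 to 10.98 in the KO livers. All 4 were above every KO liver. Gm4841, which RefSeq also lists as Ifgga3 and which belongs to the IRG family though it was in none of the lists, was at 12.93, against 5.01 to 5.76, with 5.99 to 10.28 in the KO livers.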
